A study of Arabidopsis thaliana with 9 samples.

Results

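Cluster 7 is 1 of 21 numbered groups of nuclei from the root of Arabidopsis thaliana, and it was taken here by its number alone, as the column of that number in a table of average UMI values. A UMI is a tag that marks 1 captured RNA molecule. The column has values above 0 for 19492 of the 23241 genes in the table, and each column of the table sums to 10000, so values are given per 10000. The same number was followed in a table of whole cells (20 clusters, with no cluster 14) and in a table of chromatin accessibility (21 clusters, 20803 regions). All samples are of the Col-0 genotype. The nuclei came from 7-day-old plants whose roots were chopped, filtered and sorted by flow cytometry, with 5 RNA and 2 accessibility libraries. Of the 2 bulk RNA libraries, both from root tips of 6-day-old plants, 1 was made from protoplasts, which are cells freed of their walls by enzymes, and 1 from intact tips. The labels give 2 growth conditions, 25C with a 16/8-hour light-dark cycle for the plants grown 7 days and 23C with continuous light for those grown 6 days. The plants behind the whole-cell table are not described in the labels. All libraries of a kind are pooled in the cluster averages and the number of nuclei in a cluster is not stated, so no value has a replicate error and the differences below carry no test.

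The root cap is the sheath of cells over the root tip, renewed from stem cells at its base and shed at its outer face. The NAC transcription factors SMB, BRN1 and BRN2 act together in the maturation of root cap cells, and FEZ, another NAC factor, promotes the divisions that renew them. WER is a MYB transcription factor of the non-hair epidermis that is also active in the lateral root cap, the flank of the cap, which arises from the same stem cells as the epidermis. PLETHORA (PLT) factors keep the root tip meristem active. ATAC-seq reads open chromatin through a transposase that inserts into it.

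The 3 marker genes had their highest nucleus value in cluster 7. SMB (AT1G79580) was at 0.885 per 10000 in cluster 7, and between 0 and 0.175 in the other 20 clusters with a median of 0. BRN1 (AT1G33280) was at 0.602 in cluster 7 and between 0 and 0.0640 in the others, again with a median of 0. For both genes cluster 7 stood clear of the rest, 5.07-fold above cluster 9 for SMB and 9.40-fold above cluster 4 for BRN1. WER (AT5G14750) was at 2.66 in cluster 7 and between 0 and 2.50 in the others, with a median of 0.135. WER therefore did not set cluster 7 apart, since cluster 9 held nearly the same value and clusters 6 and 3 followed at 1.83 and 1.43.

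**Figure D1:**
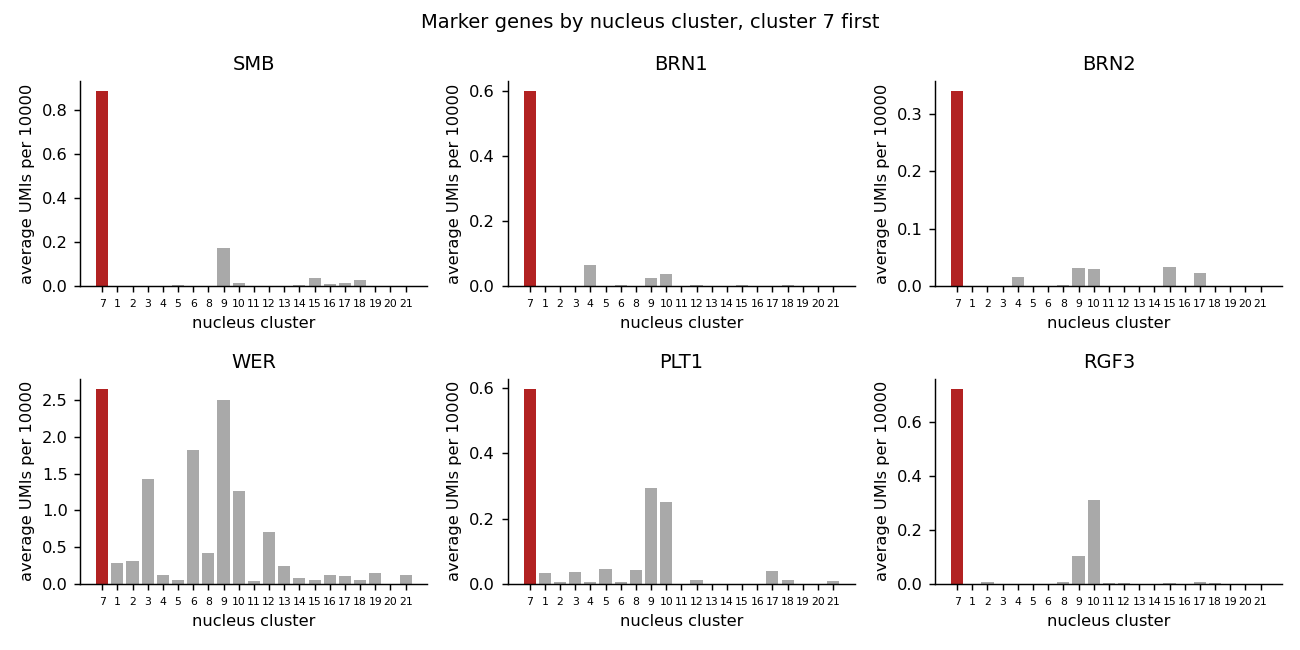
Average UMIs per 10000 (vertical axis) of 6 genes in each of the 21 nucleus clusters (horizontal axis), cluster 7 in red at the left and the others in grey. SMB, BRN1 and BRN2 are far higher in cluster 7 (0.885, 0.602 and 0.340) than in any other cluster, whereas WER is at 2.66 in cluster 7 and 2.50 in cluster 9.

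Of the 10 genes in the root cap list, 5 had their highest value in cluster 7, against 2.61% of all genes above 0 in a nucleus cluster. The list was chosen with earlier results of these data known and holds the markers SMB and BRN1. The count is therefore a description and not independent evidence of root cap identity. Besides SMB and BRN1 the 5 were BRN2 (AT4G10350), CEL5 (AT1G22880) and FEZ (AT1G26870), which are named after their values were seen. BRN2 was at 0.340 in cluster 7 and at most 0.0330 elsewhere. CEL5, a cellulase gene of the root cap, was at 0.424 in cluster 7 and at most 0.108 elsewhere, and FEZ at 0.121 in cluster 7 and at most 0.0858 elsewhere. All 3 stayed under the floor of 0.5 per 10000 used for calls, which a gene had to reach in cluster 7 or in the mean of the other 20 clusters. The nuclease gene BFN1 (AT1G11190), a marker of cell death in maturing root cap and xylem, was at 0.162 in cluster 7 and 13.1 in cluster 4, and GH3.17 (AT1G28130) was at 1.84 in cluster 7 and 11.7 in cluster 5. IDL1 (AT3G25655) was at 0.154 in cluster 7 and 0.642 in cluster 6, and ARL2 (AT1G59980) at 0.365 in cluster 7 and 0.856 in cluster 20. AT1G65570 was at 0 in every nucleus cluster. The whole list summed to 4.89 in cluster 7 and 16.6 in cluster 4. Of the 4 listed genes past the floor 2 were called higher and 1 lower, with a median log2 ratio of 1.27. The shares over all genes past the floor were 5.83% higher and 8.77% lower. With SMB and BRN1 as the only listed root cap genes that reached the floor and were highest here, the nuclei are called by their number and not by a cell type.

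Fewer genes were called 2-fold higher or lower than the mean of the others in cluster 7 than in any other cluster. A gene was called at a 2-fold difference between cluster 7 and the mean of the other 20 clusters, after 0.1 was added to both. Of 6729 genes past the floor, 392 (5.83%) were higher in cluster 7 and 590 (8.77%) were lower, both the smallest counts among the 21 clusters treated the same way. Of 2176 genes at 1 or more in cluster 7, 17 (0.781%) were at least 2-fold above every other cluster, and only cluster 8 had fewer such genes, 6. At 4-fold there were 7 such genes, the 17th largest count of the 21. Against the median of the others 1081 were higher and 42 lower, a count not made for the other clusters. Cluster 7 held the highest nucleus value for 559 of 21398 genes (2.61%).

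The genes that stood out most were 20 at 1 or more per 10000, ranked by the ratio of cluster 7 to the next cluster. TGG1 (AT5G26000), a myrosinase, an enzyme that breaks down glucosinolates, was at 1.25 in cluster 7 and at most 0.00672 in the others. AT5G60530 was at 3.96 in cluster 7 and at most 0.251 in the others, a ratio of 15.8. AT3G03500 was at 2.77 in cluster 7 and at most 0.267 in the others, and AT1G23160 was at 1.02 in cluster 7 and at most 0.108 in the others. None of these last 3 has a name in the gene table. The neighbouring genes AT1G52060 and AT1G52070 were at 1.44 and 3.60 in cluster 7, with highest other values of 0.132 and 0.506.

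The root myrosinase genes TGG4 (AT1G47600) and TGG5 (AT1G51470) were at 3.01 and 2.50 in cluster 7, against 0.894 and 0.865 in cluster 4, the next highest for both, and medians of 0.0356 and 0.0200 over the others. TGG4 and TGG5 are similar in sequence, as may be the neighbouring AT1G52050, AT1G52060 and AT1G52070, so reads could be shared between them and the split is uncertain. The glycine-rich protein gene GRP23 (AT2G32690) was at 1.3 in cluster 7 and 0.268 in cluster 20, and sks15 (AT4G37160), related to the SKU5 wall protein, at 1.22 in cluster 7 and 0.321 in cluster 6. The fatty acid desaturase gene ADS1 (AT1G06080) was at 1.07 in cluster 7 and 0.373 in cluster 10, and the GDSL-like lipase gene AT1G54010 was at 2.77 in cluster 7 and 0.974 in cluster 5. The other 8 had ratios between 1.59 and 2.70: AT1G10530, AT5G10130, the lipid transfer protein genes LTP2 (AT2G38530) and LTP3 (AT5G59320), AT5G54370, the transporter gene ABCG41 (AT4G15215), AT2G43610 and the expansin gene EXPA14 (AT5G56320).

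**Figure D2:**
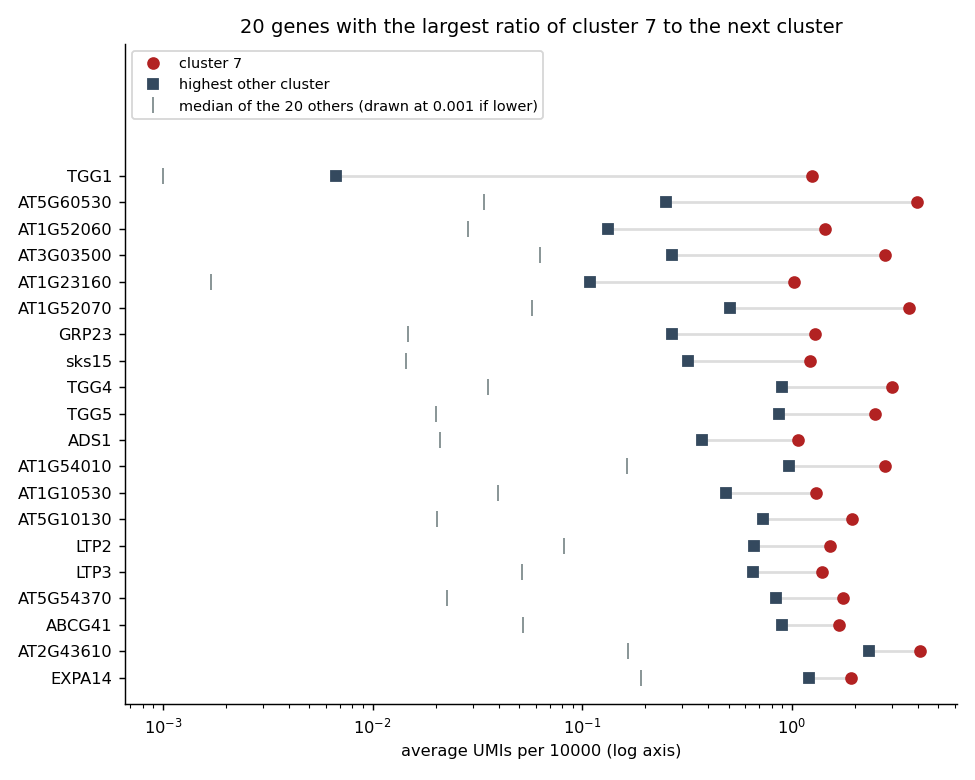
The 20 genes with the greatest ratio of cluster 7 to the next nucleus cluster, from the largest at the top, with average UMIs per 10000 on a log axis. Red points are cluster 7, dark squares the highest other cluster and ticks the median of the other 20. TGG1 has the widest gap (1.25 and 0.00672) and EXPA14 the narrowest (1.92 and 1.21).

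Whole cells did not place these genes in one cluster. Of the 20, whole-cell cluster 4 held the highest value of 8, cluster 10 of 5 and cluster 7 of 2 (AT1G54010 and AT2G43610), clusters 18 and 19 of 1 each, and 3 were listed at 0 in every whole-cell cluster. AT1G52070 was at 178 in whole-cell cluster 7, 194 in cluster 4 and 112 in cluster 10, with a median of 1.57 over the 19 clusters other than cluster 7. AT2G43610 was at 102 in whole-cell cluster 7, 91.9 in cluster 10 and 46.7 in cluster 4. TGG4 and TGG5 went another way: they were at 0.0906 and 0.0759 in whole-cell cluster 7, against 21.2 and 17.7 in whole-cell cluster 4.

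In the bulk libraries, whose file does not name its unit but holds values of the size and form of FPKM, AT1G52070 was at 2985 in protoplasts and 345 in intact tips. AT5G60530 was at 539 and TGG4 at 551 in protoplasts, against 77.6 and 107 in intact tips. TGG1 was listed at 0 in both libraries, GRP23 at 0 in protoplasts and 0.0895 in intact tips, and LTP3 at 0 in protoplasts and 1.44 in intact tips. These 3 were also the leading genes listed at 0 in every whole-cell cluster, a state shared by 904 genes in all. Each bulk condition is 1 library, and in bulk RNA fewer cells of a type and less RNA per cell cannot be told apart.

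On the UMI scale, which counts transcript ends and does not depend on length, the 5 highest values of cluster 7 belonged to genes that were high in many clusters. The long noncoding RNA gene AT3G06355 was at 185 in cluster 7 and 226 in cluster 9, with a median of 50.0 over the others, and was the 1 of the 5 called higher. PYK10 (AT3G09260), the main beta-glucosidase of root ER bodies, was at 90.5 in cluster 7, with a median of 55.9 and a highest value of 346 (cluster 11) in the others. AT1G07590, whose reads are uncertain because it overlaps the metallothionein gene MT1A, was at 50.8 in cluster 7 and at most 130 in the others, GRP7 (AT2G21660), an RNA-binding protein gene, at 49.7 in cluster 7 and at most 97.3, and DR4 (AT1G73330) at 31.6 in cluster 7 and at most 322.

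Epidermal identity genes were present with the root cap genes. In the list of 14 hair and non-hair patterning genes 3 passed the floor, with 2 called higher, none lower and a median log2 ratio of 1.47. The median of all genes past the floor was 0.00, and 5.83% of them were called higher. All 3 passed the floor only through their value in cluster 7, which favours a positive ratio. With no floor the median of the list was 0.26. These 2 were WER and GL2 (AT1G79840), a homeodomain factor that keeps non-hair cells from making hairs, at 0.546 in cluster 7, second to 1.51 in cluster 6. The inhibitor gene CPC (AT2G46410) was at 0.563 in cluster 7 and 1.41 in cluster 6. The 1 HD-ZIP IV gene past the floor of 6 in the table, the epidermal factor ANL2 (AT4G00730), was called higher at 1.17 in cluster 7 and 1.22 in cluster 9, with a median of 0.0848 over the others. With no floor the median log2 ratio of the 6 was 0.84. ATML1 (AT4G21750), a shoot and embryo epidermis factor named after its values were seen, was highest in cluster 7 at 0.259, with 0.110 in cluster 9. ATML1 stayed under the floor and was at 0 in every whole-cell cluster. In the bulk libraries it was at 0.0345 in protoplasts and 0.0554 in intact tips.

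Genes of the root tip meristem were high too, here together with clusters 9 and 10, in which DNA replication and mitosis genes are highest. Of 9 stem cell niche and PLT genes 3 passed the floor and 2 were called higher, with none lower and a median log2 ratio of 2.04. With no floor the median was 1.33, and 5.83% of all genes past the floor were called higher. PLT1 (AT3G20840) was at 0.599 in cluster 7, 0.294 in cluster 9 and 0.252 in cluster 10, with a median of 0.00748 over the others. PLT3 (AT5G10510) was at 2.05 in cluster 7 and 2.52 in both cluster 9 and cluster 10. AGL42 (AT5G62165), first known from the quiescent centre, was at 0.785 in cluster 7 and 0.937 in the median of the others.

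ROOT MERISTEM GROWTH FACTOR (RGF) genes encode secreted peptides that maintain the PLT proteins. The list holds 7 genes of these peptides and their receptors. Of these, 5 passed the floor, with 3 called higher, none lower and a median log2 ratio of 1.33. The share called higher over all genes past the floor was 5.83%. RGF3 (AT2G04025) was at 0.722 in cluster 7, 0.311 in cluster 10 and 0.104 in cluster 9, with a median of 0. RGF1 (AT5G60810), named after its values were seen, was at 0.20 in cluster 7 and at most 0.0562 elsewhere, under the floor. The other 2 called members, AT5G48940 and AT1G34110, encode receptors. They were at 1.70 and 0.708 in cluster 7 and at 3.34 and 1.36 in cluster 9, where both peaked.

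Of 11 auxin transport genes, all past the floor, 2 were called higher and 1 lower, with a median log2 ratio of 0.19. The shares over all genes past the floor were 5.83% higher and 8.77% lower. The auxin efflux carrier gene PIN2 (AT5G57090) was called higher, at 1.57 in cluster 7 and 1.71 in cluster 9, and the influx carrier gene LAX3 (AT1G77690) was called lower, at 0.410 in cluster 7 and 18.7 in cluster 20. Of 12 auxin synthesis and response genes 3 passed the floor and 2 were called higher, with none lower and a median of 1.06. With no floor the median of this list was 0.25. YUC3 (AT1G04610), an auxin biosynthesis enzyme, was at 1.81 in cluster 7, second to 7.74 in cluster 6. ARF16 (AT4G30080), an auxin response factor needed for root cap formation, was at 0.700 in cluster 7 and at most 0.814 elsewhere, in cluster 5. No cytokinin gene (2 past the floor, median -0.51) and no gravity response gene (1 past the floor, ARG1 (AT1G68370), at 0.849 in cluster 7 and 0.904 in cluster 10) was called.

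Of 9 myrosinase and ER body genes, all past the floor, 5 were called higher and none lower, with a median log2 ratio of 1.55. Among all genes past the floor 5.83% were called higher. Besides TGG1, TGG4 and TGG5 they were the beta-glucosidase genes BGLU21 (AT1G66270), at 11.8 in cluster 7, and BGLU22 (AT1G66280), at 20.13 in cluster 7. Both were second to cluster 3, which had 43.8 and 24.3. The lectin gene PBP1 (AT3G16420), whose protein binds PYK10, was at 23.1 in cluster 7 and at most 55.4 in the others, in cluster 5. Of 7 genes between AT1G52000 and AT1G52130 in the table, the 3 past the floor, AT1G52050, AT1G52060 and AT1G52070, were all called higher, with a median of 3.48. All 3 passed the floor only through cluster 7, and with no floor the median was 2.09. AT1G52050 was at 0.797 in cluster 7 and at most 0.0454 in the others. The indole glucosinolate synthesis genes did not follow the myrosinases: of 5 past the floor none was called, the median was -0.65, and the regulator gene MYB34 (AT5G60890) was at 2.22 in cluster 7 and 14.1 in cluster 18.

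DNA replication and ribosomal protein genes were mostly above the mean of the others, and no mitosis gene was called. Of 6 DNA replication genes past the floor 4 were called higher and none lower, with a median log2 ratio of 1.14. Over all genes past the floor 5.83% were called higher. CDT1A (AT2G31270), a replication licensing factor, was at 0.607 in cluster 7 and 0.630 in cluster 9, and the ribonucleotide reductase gene RNR1 (AT2G21790) at 0.968 in cluster 7 and 2.26 in cluster 9. MCM5 (AT2G07690) and MCM2 (AT1G44900), of the replicative helicase, were at 0.768 and 0.542 in cluster 7, with highest other values of 1.11 and 1.07. Of 8 mitosis genes 1 passed the floor, CDC20.1 (AT4G33270), which was second highest in cluster 7 at 0.886 but far under cluster 10 at 24.7, with a log2 ratio of -0.66 to the mean of the others. Against the median of the others, the median log2 ratio of the mitosis list was 1.80. The mitosis genes summed to 2.19 in cluster 7 and 54.6 in cluster 10, with a median of 0.416 over the others. Of the 8, 4 were second highest in cluster 7, and the share of all genes second highest there was not counted. Of 12 cytosolic ribosomal protein genes 6 were called higher, against 5.83% of all genes past the floor, and 0 lower, with a median of 1.01. RPL5B (AT5G39740) was at 5.04 in cluster 7 and 6.79 in cluster 8, and RPS6A (AT4G31700) at 4.74 in cluster 7 and 6.85 in cluster 8.

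Lists of differentiated tissues were mostly lower than the mean of the other clusters. All 5 endodermis genes past the floor were called lower (median log2 ratio -2.68), as were 6 of 8 root hair genes (-1.61), 4 of 4 xylem and procambium genes (-1.48), 2 of 3 phloem genes (-1.17) and 1 of 3 pericycle genes (-0.80), and none of these lists had a gene called higher. Such means rest on the 1 cluster where a gene peaks, and 8.77% of all genes past the floor were called lower. CASP1 (AT2G36100), of the Casparian strip, was at 0.410 in cluster 7, and in the others had a median of 0.415 and a highest value of 93.3, in cluster 16. Set against the median of the others in place of the mean, the endodermis, root hair and pericycle medians changed sign, to 0.26, 1.0 and 0.63. The 10 genes with the largest decrease were of the same kind, with 8 of them highest in cluster 16 (among them PER64, CASP1, AT5G65530, CASP2, CASP4, AT1G03920 and AT3G24020), IQD12 in cluster 20 and ATCSLB05 in cluster 6. IQD12 (AT5G03960) was at 0 in cluster 7 and 13.4 in cluster 20. PER64 (AT5G42180), a peroxidase of the Casparian strip, was at 0.190 in cluster 7 and 57.0 in cluster 16.

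No gene of developmental cell death or of the cuticle was called higher, although the summed level of each list was above the median of the other clusters. The shares over all genes past the floor were 5.83% higher and 8.77% lower. The cell death genes summed to 2.80 per 10000 in cluster 7, against a median of 1.53 and a highest value of 57.2, in cluster 4, among the others. Of 4 developmental cell death genes past the floor 1 (BFN1) was called lower and none higher, with a median log2 ratio of -0.83, which was 1.22 when cluster 7 was set against the median of the others in place of their mean. SCPL48 (AT3G45010) was at 1.42 in cluster 7 and 25.4 in cluster 4, and RNS3 (AT1G26820), a ribonuclease gene, was at 0.508 in cluster 7 and 3.35 in cluster 21. Both cuticle formation genes past the floor, GPAT4 (AT1G01610) and LACS2 (AT1G49430), were called lower, at 0.174 and 0.271 in cluster 7 and 4.96 and 10.9 in cluster 14. The cuticle genes summed to 1.39 in cluster 7, against a median of 0.317 and a highest value of 25.6, in cluster 14, among the others, and with no floor their median log2 ratio was 0.57. No cortex gene passed the floor.

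**Figure D3:**
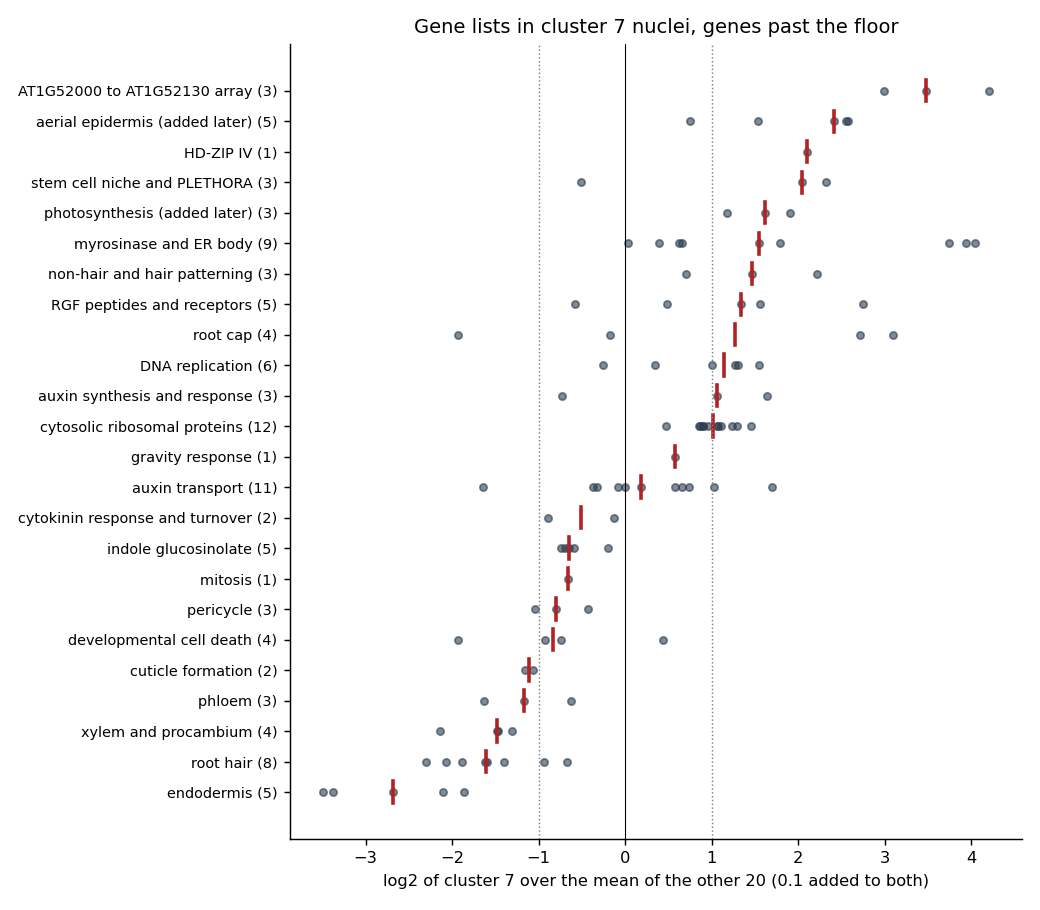
Each point is a gene past the floor, placed by the log2 ratio of cluster 7 to the mean of the other 20 nucleus clusters, for each gene list (number of genes in brackets), with the list's median as a red bar and dotted lines at a 2-fold difference. The genes between AT1G52000 and AT1G52130 have the highest median (3.48) and the endodermis genes the lowest (-2.68). A gene can pass the floor through its cluster 7 value alone.

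Summed levels of transcripts known mostly from leaves and shoot epidermis were highest in cluster 7, and the lists behind this statement were added after values were seen. The summed level of 11 photosynthesis genes was 5.12 per 10000 in cluster 7, and in the others ranged between 0.375 and 4.47 with a median of 1.1, the next highest being cluster 11. The summed level of 8 genes of the aerial epidermis was 6.11 in cluster 7 and between 0.113 and 3.72 in the others, with a median of 0.615. Gene by gene, 5 of the 11 photosynthesis genes and 4 of the 8 aerial epidermis genes were highest in cluster 7, and 4 and 1 more were second highest there. Of all genes above 0 in a nucleus cluster, 2.61% were highest in cluster 7, and the share second highest there was not counted. LHCB1.3 (AT1G29930), a light-harvesting protein gene, was at 0.948 in cluster 7 and 0.519 in cluster 8. Of these lists, 3 of 3 photosynthesis genes and 4 of 5 aerial epidermis genes past the floor were called higher, with median log2 ratios of 1.62 and 2.41. The share called higher over all genes past the floor was 5.83%. Of the 6 shoot identity and stomata genes in the table, 5 were at 0 in cluster 7, and the remaining one, FIL (AT2G45190), was at 0.0294.

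Among the leading genes, TGG1, known from guard cells and myrosin cells of leaves, and LTP2 and LTP3 of the shoot epidermis belong with these, and 6 of 11 photosynthesis and 2 of 8 aerial epidermis genes were at 0 in every whole-cell cluster. GRP5 (AT3G20470), another glycine-rich protein gene, named after its values were seen, was at 2.71 in cluster 7 and 2.52 in cluster 10, and at 0 in every whole-cell cluster. Of the 904 genes at 0 in all whole-cell clusters, 11 were at 0.5 or more in nucleus cluster 7 and 8 were called higher. Of all genes past the floor, which a gene can also pass through the other clusters, 5.83% were called higher. The part of RNA from aerial tissue in these values was not tested.

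The nucleus clusters most like cluster 7 were 9, 10 and 8. Similarity was the Spearman correlation across 13016 genes of log values centred per gene, a description in which genes are not independent and columns share libraries. It was 0.54 with nucleus cluster 9, 0.38 with cluster 10, 0.37 with cluster 8 and 0.28 with cluster 3, and lowest, at -0.35, with cluster 2.

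The match by number was weak. Of 20 nucleus clusters with a whole-cell cluster of the same number, 17 correlated best with it. Nucleus cluster 7 was 1 of the 3 that did not: its correlation was 0.42 with whole-cell cluster 7, below 0.55 with whole-cell cluster 9 and 0.48 with whole-cell cluster 10. Seen from the other side the number held, since whole-cell cluster 7 correlated best with nucleus cluster 7 (0.42), then with clusters 9 (0.38) and 3 (0.27). Whole-cell clusters 7, 10 and 9 were themselves alike, with correlations of 0.74 and 0.71 between cluster 7 and the other two. In accessibility, over 12914 genes, nucleus cluster 7 correlated at 0.19 with accessibility cluster 7 and 0.30 with accessibility cluster 9. Accessibility cluster 7 in turn correlated best with nucleus cluster 3 (0.20), then with nucleus cluster 7 (0.19). Of the 21 nucleus clusters, 19 correlated best with their own number there, so cluster 7 was 1 of the 2 that did not.

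**Figure D4:**
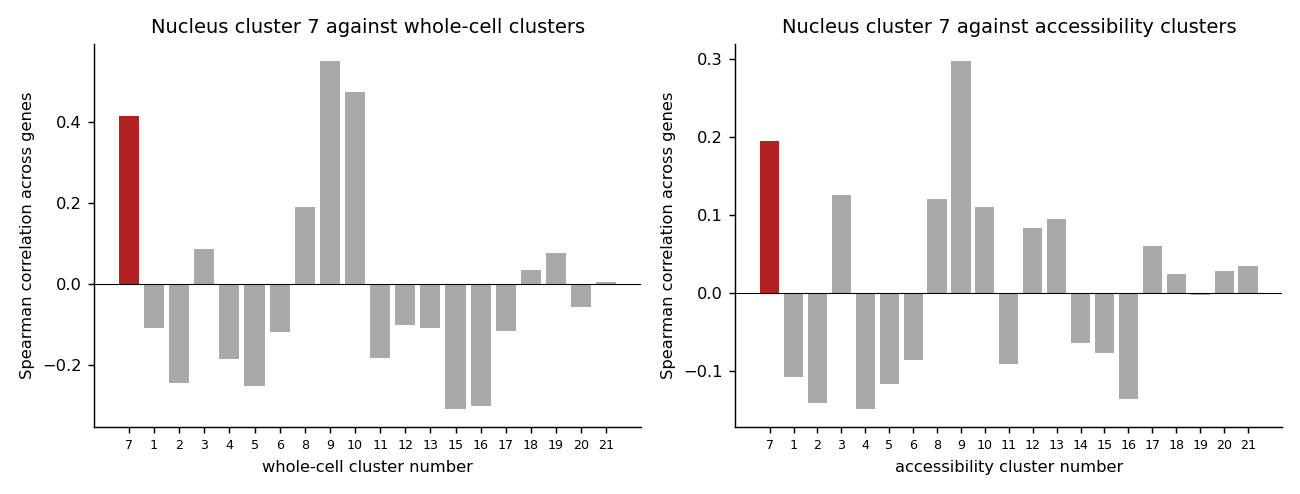
Spearman correlation across genes (vertical axis) of nucleus cluster 7 with each whole-cell cluster (left) and each accessibility cluster (right), the cluster of the same number in red at the left of each panel. Number 7 stands at 0.42 among whole-cell clusters and 0.19 among accessibility clusters, with number 9 highest in both (0.55 and 0.30).

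The overlap of called genes was smaller with whole-cell cluster 7 than with whole-cell clusters 10, 9 and 8. In whole-cell cluster 7, 489 of 4064 genes past the floor (12%) were 2-fold higher than the mean of the other 19 clusters and 729 (17.9%) were lower. Of the 392 genes higher in nucleus cluster 7, 95 were also higher in whole-cell cluster 7, which is 24.2% of the nucleus genes and 19.4% of the whole-cell genes. The overlap with whole-cell cluster 10 was 214 genes (54.6% and 19.5%), and with cluster 9 it was 195 (49.7% and 27.4%). With cluster 8, whose correlation was only 0.19, it was 109 (27.8% and 19.2%). The backgrounds differed: 24.2% of the genes past the floor were called higher in whole-cell cluster 10, 16.9% in cluster 9 and 13.8% in cluster 8. Of the 392 genes, 206 were past the floor in the comparison of whole-cell cluster 7, of which 95 are 46.1%. The same count was 245 for cluster 10 (87.3% shared), 235 for cluster 9 (83%) and 185 for cluster 8 (58.9%). A gene can pass the floor through the cluster compared, so these shares are given as a description.

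All markers were higher in whole-cell cluster 10 than in whole-cell cluster 7, but only WER was also higher in whole-cell cluster 9. There SMB was at 0.442 and BRN1 at 0.369. SMB was at 0.705 in whole-cell cluster 7, second to 1.23 in cluster 10, with a median of 0.00433 over the 19 other than cluster 7. BRN1 was at 1.03 in whole-cell cluster 7 and 1.11 in cluster 10, and WER was at 1.98 in cluster 7, after 5.32 in cluster 10 and 3.14 in cluster 9. What led whole-cell cluster 7 by ratio to the next cluster was RGF3, at 2.55 there and 0.502 in cluster 9, then RGF2 (AT1G13620), at 2.31 and 0.613, and the actin depolymerizing factor gene ADF9 (AT4G34970), at 3.47 and 0.997. RGF3 and ADF9 also had their highest nucleus value in cluster 7, where ADF9 was low, at 0.0646, and RGF2 was second there at 0.0853. These leading genes of the whole-cell cluster were named after their values were seen.

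Accessibility cluster 7 was marked by regions at the root cap regulators BRN2 and BRN1. The columns were scaled to 10000 each, and positions are those of the deposited table, in the TAIR10 build. Of 20803 regions, 930 (4.47%) were 2-fold more open in cluster 7 than in the mean of the other 20 clusters and 2672 (12.8%) were less open, with 0.01 added to both. In 125 regions (0.601%) cluster 7 was at least 1.5-fold above every other cluster, the sixth largest count of the 21. These 125 were short, with a median length of 675 bases, against 1714 for all regions. Leading regions of the other clusters were not measured, so short length is not shown to be particular to cluster 7.

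Among the 8 regions that exceeded the next cluster by the greatest ratio, 2 lay at BRN2 and 1 near BRN1. The region chr4:6416962-6417361, within 1000 bases of BRN2, was at 5.36 in cluster 7, and between 0.183 and 1.31 in the others with a median of 0.347. The region chr4:6415502-6415716, overlapping BRN2, was at 4.32 in cluster 7 and at most 1.09 in the others. The region chr1:12071706-12072427, within 1000 bases of BRN1, was at 3.48 in cluster 7, and between 0.0578 and 0.957 in the others. In all 3 the value of cluster 7 lay outside the range of the other 20, which follows from choosing regions by this ratio. A second BRN1 region, chr1:12073403-12075378, overlaps BRN1 and the neighbouring AT1G33290. It was at 0.672 in cluster 7, with 0.696 in cluster 2.

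The largest ratio was at chr3:4866444-4866952, at 5.61 in cluster 7 and at most 1.07 in the others. It overlaps the pseudogene AT3G14500 and lies within 1000 bases of AT3G14490 and AT3G14510. Nearby, chr3:4869247-4869523 was at 5.49 in cluster 7 and at most 1.96 in the others, and chr3:4874896-4876449, overlapping AT3G14520, at 4.82 in cluster 7 and at most 2.89, in cluster 3. These last 2 regions were chosen after their values were seen. AT3G14510 had its highest nucleus RNA value in cluster 7 as well, at 0.390, with 0.270 in cluster 3. The other 4 of the 8 were chr5:21511474-21511653 (AT5G53048 and AT5G53050), chr5:606402-606743 (AT5G02680), chr2:10829151-10829237 (the receptor-like protein gene RLP20) and chr5:1344508-1344614 (near AT5G00985), at 3.2, 3.89, 4.54 and 3.82 in cluster 7 and at most 0.690, 0.996, 1.22 and 1.03 in the others.

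The other markers differed less. Of 2 regions at SMB, chr1:29941718-29942526 was highest in cluster 7 at 0.785, with 0.687 in cluster 3, and the other was at 0.860 in cluster 7, with 0.916 in cluster 16. Of 2 regions that overlap WER and also its neighbouring genes, chr5:4764560-4768758 was highest in cluster 7 at 1.26, with 1.04 in cluster 3, and the other was at 1.05 in cluster 7, with 1.5 in cluster 1. Both FEZ regions were highest in cluster 7, chr1:9311890-9312539 at 2.02 with 1.87 in cluster 9, and the other at 0.742 with 0.714 in cluster 13. The 4 NAC genes thus each had a region highest in cluster 7, which held for 5.77% of all genes past the floor. CEL5, also highest in cluster 7 in nucleus RNA, did not: its region was at 0.608 in cluster 7 and 0.858 in cluster 4. BRN2, FEZ and CEL5 were named after their values were seen. Among the NAC genes the margin was wide at BRN2 and at 1 BRN1 region, and narrow at SMB and FEZ.

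**Figure D5:**
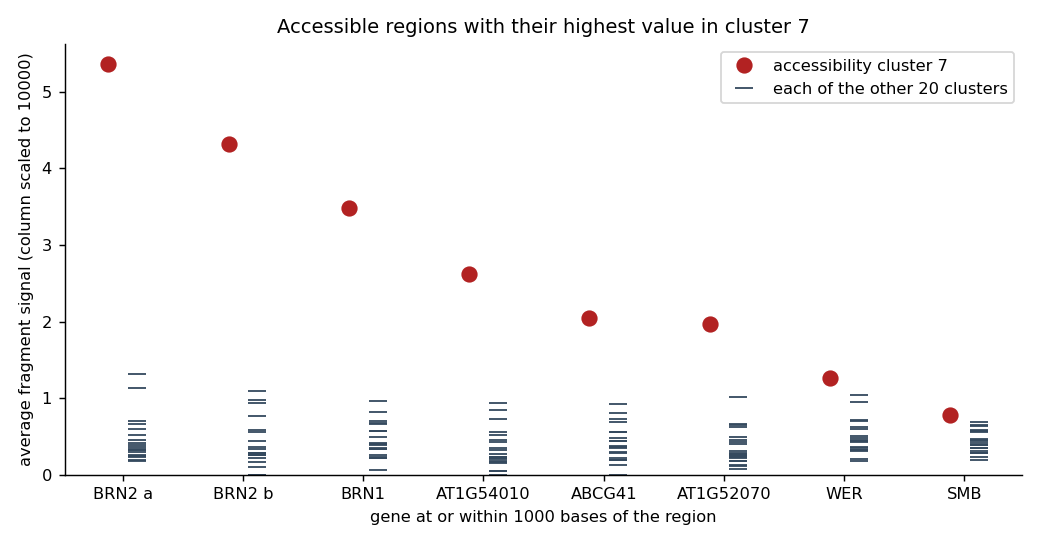
Accessibility (vertical axis, average fragment signal with each column scaled to 10000) of 8 regions at or within 1000 bases of the genes named on the horizontal axis, with cluster 7 as red points and each of the other 20 clusters as a dash. The regions were chosen because cluster 7 is highest. Cluster 7 is at 5.36 and 4.32 in the BRN2 regions, where no other cluster passes 1.31, and at 0.785 in the SMB region, close to the next value of 0.687.

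The share of genes with a region highest in accessibility cluster 7 was larger among genes high in nucleus cluster 7 than among all genes. Of the 20 leading genes 16 had a region within 1000 bases, and for 9 of them (56.3%) at least 1 such region was highest in cluster 7, where this held for 135 of 2166 genes at 1 or more in nucleus cluster 7 (6.23%) and for 387 of 6709 genes past the floor (5.77%). It held for 66 of 385 genes called higher (17.1%) and 9 of 588 called lower (1.53%). AT1G54010 had a region at 2.62 in cluster 7 and at most 0.940 in the others, ABCG41 one at 2.04 in cluster 7 and at most 0.925, AT1G52070 one at 1.97 in cluster 7 and at most 1.02, and EXPA14 one at 1.39 in cluster 7 and at most 0.832. The reverse look gave the same picture: of 57 genes counted within 1000 bases of the 125 regions, 10 (17.5%) had their highest RNA value in nucleus cluster 7, against 142 of 12967 genes counted near any region (1.1%). The 12967 are fewer than the 21398 genes above 0 in a nucleus cluster, so genes of low value appear to be left out. The labels do not say whether the accessibility clusters were numbered by a match to RNA, so the 2 readouts may not be independent.

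Not all leading genes were open in cluster 7. The LTP2 regions were at 0.262 and 0.0575 in cluster 7, with medians of 0.435 and 0.387 over the others. The LTP3 regions were at 0.244 and 0.599 in cluster 7, with medians of 0.408 and 0.476 over the others, and the GRP23 region was at 0.518 in cluster 7 and 0.435 in the median of the others. LTP2 and LTP3 are among the leading genes known from aerial tissue, and TGG1, another of them, had no region within 1000 bases. PLT1 had 2 regions, at 0.846 and 0.315 in cluster 7, with highest other values of 1.76 and 0.901, so its high RNA value in cluster 7 was not matched by a region most open there.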

How the data were processed

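The authors deposited 3 tables of average signal per cluster (UMI values of nuclei and of whole cells, fragment values of accessibility) and 1 table of bulk signal whose header names no unit. Seurat 3.1.5, Signac 0.2.5, Cell Ranger 3.1.0 and its ATAC version 1.2, TopHat2 2.0.11, SAMtools 0.1.19 and Bowtie2 2.1.0 are named in the submitters' processing notes, with the TAIR10 build. The deposited averages pool all libraries of a kind. Depth, cells per cluster and the treatment of doublets are unknown.

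Here, nucleus columns were compared as log2(value + 0.1) with the mean of the other 20, among genes at 0.5 or more in either, and regions as log2(value + 0.01) with a floor of 0.1 after scaling columns to 10000. Regions were joined to genes with a RefSeq table of TAIR10.1 that held all 23241 genes. Named were the markers, the 20 genes furthest above the next column by ratio, the 10 lowest, the 5 most abundant, called and abundant list members, and the 8 leading regions. CPC, RNS3, ATML1, RGF1, BRN2, FEZ and others marked so were named after their values were seen. Some genes these rules select are not reported here. The members and lists were chosen with earlier results of these data known. The calculations were tested on simulated data. Python 3.11.15, pandas 2.3.3, NumPy 2.4.6 and Matplotlib 3.10.9 were used.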

Additional observations from a re-analysis of the deposited data

How the results depend on the processing

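No paired analysis was possible because the cluster averages pool all libraries, and for the same reason no library could be left out. Depth and cluster sizes are unknown, so low values such as those of FEZ carry an error that cannot be stated. The counts of genes higher in cluster 7 (392) and lower (590) moved by over 1.5 times under most choices. They were 40 and 88 with a pseudocount of 1, 122 and 117 with a floor of 2 per 10000, 646 and 1093 with no floor, and 1081 and 42 against the median of the other columns, where 96.3% of calls were higher in place of 39.9%. Without clusters 9, 10 and 8, 766 were higher, and the lower count stayed within 1.5 times. A pseudocount of 0.01 and centring on the median gene kept both counts within 1.5 times. Genes 2-fold and 4-fold above every other cluster numbered 33 and 15 with a floor of 0.5, and 6 and 3 with a floor of 2, in place of 17 and 7. In whole-cell cluster 7, 152 were higher and 279 lower with a pseudocount of 1, 223 and 245 with a floor of 2, and 853 and 320 against the median. Regions more open numbered 1431 against the median, in place of 930. Listed genes called higher numbered 10 with a pseudocount of 1 and 53 against the median, in place of 32, and those called lower 9 with a pseudocount of 1, 34 with no floor and 0 against the median, in place of 22. With no floor, list medians fell to 0.26 for patterning, 0.84 for HD-ZIP IV and 1.33 for niche and PLT genes. They fell to 0.25 for auxin synthesis and response and 2.09 for the genes between AT1G52000 and AT1G52130. The root cap (1.01), RGF (1.33), myrosinase (1.55), DNA replication (1.03) and ribosomal (1.01) medians stayed within 1.5 times. Against the median of the other columns the log2 value turned positive for the medians of cell death (1.22), mitosis (1.80), root hair (1.0), endodermis (0.26) and pericycle genes (0.63) and for PER64 (0.088), AT5G65530 (0.39), CASP2 (0.23), AT1G03920 (0.29) and AT3G24020 (0.28), and with no floor the cuticle median was 0.57. A gene that peaks in 1 cluster has a mean above its median, so by construction the choice of mean or median moves these values, and the cause of the other shifts was not tested. Correlations with clusters 9, 10, 8, and with the whole-cell and accessibility clusters given, stayed within 1.5 times under Pearson and a floor of 2. Joining regions within 1000 bases on either side, chosen after seeing the data because the gene table gives no strand to tell upstream, gave 0.20 for accessibility cluster 7. Without genes at 0 in every whole-cell cluster, also chosen after seeing the data, 14 of 17 and 5 of 7 remained.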

Other observations

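Several genes under the reporting rule stood out in cluster 7 and were chosen after their values were seen. AT1G36060 was at 18.3 per 10000 in nucleus cluster 7, 15.5 in cluster 6 and 11.1 in cluster 9, with a median of 0.699 over the other 20 clusters. AT1G33750 was at 4.66 in nucleus cluster 7 and 4.69 in cluster 9, with a median of 0.101. The cis-prenyltransferase gene CPT (AT2G23410) was at 0.816 in nucleus cluster 7 and at most 0.0532 in the others, and AT5G58784 was at 0.798 in nucleus cluster 7 and at most 0.0310 in the others. In whole cells AT5G58784 was highest in cluster 7, at 2.75, and CPT in cluster 4, at 0.461.

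CER3 (AT5G57800), of wax synthesis, was highest in nucleus cluster 7 at 0.597, with 0.409 in cluster 9. It had 5 regions within 1000 bases, of which 3 were highest in accessibility cluster 7: chr5:23418929-23419469 at 1.45, chr5:23420009-23420506 at 2.18 and chr5:23423486-23423887 at 2.45, with highest other values of 0.818, 0.829 and 1.36.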
